A study of Sus scrofa with 15 samples.

Results

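The genes described here are the deubiquitinases of the USP, OTU and UCHL families in an RNA-seq series of cloned pig embryos. They were taken as each entry of the deposited table whose symbol begins with USP, OTUD, OTUB or UCHL followed by a digit, which gave 62 genes among 43294 features (28224 known genes and 15070 assembled transcripts without a symbol). Of these 62 genes, 49 carried a USP symbol, 8 an OTUD symbol, 2 an OTUB symbol and 3 a UCHL symbol, and they lay on 16 chromosomes, with 7 on X, 7 on chromosome 6 and 6 on chromosome 1. USP6NL was matched by its symbol but encodes a GTPase-activating protein of endosomes, and the annotation lists USP42 as a long non-coding RNA. The rule that defines the set also names OTUD4 and USP5 for their change in TDG-induced embryos, so their values are described without a test.

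The series held 5 groups of 3 libraries. PFF were porcine fetal fibroblasts of passages 2 to 5, the donor cells of the nuclear transfer, with RNA taken by TRIzol. SCNT4c and SCNT8c were 4-cell and 8-cell somatic cell nuclear transfer embryos, each library a pool of 30 embryos extracted with a PicoPure kit. SCNT4c-KG were 4-cell embryos injected with KDM4A mRNA at 1000 ng/µl 5 h after activation and kept in 0.1 µM GSK126 for 48 h. KDM4A removes methyl groups from lysine 9 of histone H3, and GSK126 inhibits EZH2, the methyltransferase of lysine 27. SCNT4c-TDG were 4-cell embryos cloned from fibroblasts that had been transfected with a doxycycline-inducible TDG vector and selected with puromycin, and they received doxycycline at 500 ng/ml from 40 to 72 h. TDG is the glycosylase that removes oxidised methylcytosine during active DNA demethylation. Untreated SCNT4c served as the control of both treatments, and no library had doxycycline without the TDG vector. The embryos of SCNT4c-TDG differed from SCNT4c by the transfected and selected donor line and by doxycycline as well as by TDG, and these factors cannot be told apart. The labels number the SCNT4c-TDG samples apart from those of all other groups, and whether they were processed at another time is not stated. SCNT4c-KG joined injection, KDM4A and GSK126, and no library had any of these alone, so they cannot be told apart either.

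Ubiquitin is a small protein that a cascade of activating, conjugating and ligating enzymes attaches to other proteins, singly or as chains, and that marks them for the proteasome, for trafficking or for a change of activity. Deubiquitinases are the proteases that remove it. USP enzymes form the largest family and mostly cut between ubiquitin and its target, OTU enzymes often prefer chains of particular linkages, and UCH enzymes release short remnants from the end of ubiquitin. After activation the early embryo degrades much of the protein stored in the oocyte, and UCHL1 is known as an abundant protein of mammalian oocytes.

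Each value is a normalized signal, the reads of a feature scaled by a factor of its library. Whole reads recovered from the signals numbered 12354649 to 22868038 per library. TDG itself stood at 939 to 2541 in SCNT4c, 3886 to 4738 in SCNT4c-KG and 49857 to 59944 in SCNT4c-TDG, and KDM4A at 134 to 313 in SCNT4c, 1429 to 1476 in SCNT4c-KG and 555 to 918 in SCNT4c-TDG, which had no KDM4A injection. Mitochondrial genes held 8.26% to 9.42% of the signal in SCNT4c-TDG and 0.81% to 2.47% in the other groups. The 14 fibroblast markers in the table summed to 3874816 to 4103348 in PFF and to 1823 to 5796 in the embryo libraries, with COL5A1 at 0 in each embryo group and PDGFRA at 0 in PFF as well as in the embryos. The 15 oocyte and maternal markers summed to 282665 to 351289 in SCNT4c, 103564 to 152616 in SCNT4c-KG, 75363 to 79531 in SCNT4c-TDG and 67172 to 206776 in SCNT8c, with GDF9, BMP15 and MOS at 0 in each embryo group. Cumulus cell markers (10 in the table, PTX3 and AMH at 0 in each embryo group) summed to 1695 to 2020 in SCNT4c and to 859 to 2268 in the other embryo libraries. The 10 pluripotency markers summed to 2391 to 5062 in SCNT4c and 2606 to 2734 in SCNT8c, against 41044 to 72861 in SCNT4c-KG and 43872 to 57843 in SCNT4c-TDG, with LIN28A and KLF17 at 0 in each embryo group. The maternal and pluripotency sums moved with both treatments and the mitochondrial share with SCNT4c-TDG, and their part in the differences given here was not tested. SCNT8c replicate 3 correlated with SCNT4c (mean r = 0.859 across features) more than with the other SCNT8c libraries (0.772), so SCNT8c results are given with and without it. The columns of SCNT4c could not be matched to its sample numbers, and its libraries are called a, b and c. The same column names also stand as descriptions of samples titled SCNT_4c_KG, so the group was taken from the column names. KDM4A was at 134 to 313 in these columns and at 1429 to 1476 in the SCNT4c-KG columns.

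Of the 62 genes, 38 had signal in each of the 15 libraries and 5 had none in any (USP7, USP35, USP36, USP48 and USP53), although assembled transcripts at the loci of USP7, USP35, USP36 and USP48 had signal in each library. Testing asked for a mean signal of at least 10 over the 12 embryo libraries, which 43 genes reached. The 19 others were the 5 at 0 and 14 with a mean of up to 9.91 (OTUB1, OTUD6A, USP2, USP4, USP14, USP20, USP26, USP33, USP38, USP40, USP45, USP50, USP51 and USP54). A gene low in 3 groups could pass through 1 high group, which held for USP24 (mean 45.5 in SCNT4c-TDG and 2.73 over the other embryo groups). As with OTUD4, the genes OTUD5, USP19 and USP21 averaged below 10 in SCNT4c and in SCNT8c and passed only through the treated groups. These 3 stay in the counts below, but their rises in the treated groups are a description. The 43 genes thus do not stand for the whole family. USP8 and USP50 overlap on opposite strands, and the strand setting of the counting is not stated, so reads of the pair cannot be told apart.

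Levels of different genes were compared as signal per kilobase of exon. In SCNT4c, 3 genes stood above the rest. UCHL1, a small hydrolase of neurons and germ cells, was at 18443 ± 3919.6 (SD, n = 3), its relative UCHL3 at 5208 ± 955, and USP46, which works with the WD-repeat protein WDR48, at 2320.4 ± 700.1. USP25 (513 ± 62.3) and USP9X (331 ± 45.1) followed, and the ranges of these 5 genes over the libraries did not overlap between neighbours in the order. In PFF, UCHL1 was again first at 14796 ± 309, followed by USP18, the protease of the ubiquitin-like modifier ISG15, at 1207 ± 298, then USP22, UCHL5 and USP25 at 932 ± 25.1, 885 ± 28.9 and 719 ± 17.1, where the ranges of USP22 and UCHL5 overlapped. In SCNT4c-TDG the first 3 genes were UCHL3, UCHL1 and UCHL5, in SCNT4c-KG they were UCHL1, UCHL3 and UCHL5, and in SCNT8c they were UCHL3, UCHL1 and USP46. The ranges of UCHL1 and UCHL3 overlapped in SCNT4c-KG and in SCNT8c.

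**Figure D1:**
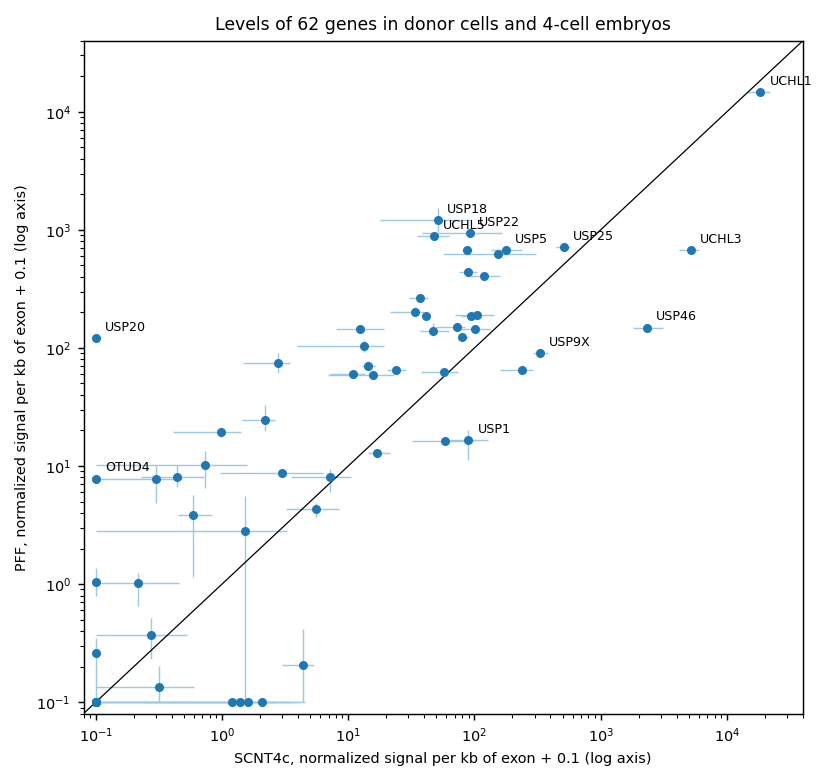
Mean signal per kilobase of exon, with 0.1 added, of the 62 genes in SCNT4c (x axis) and PFF (y axis), both axes logarithmic, with bars from the lowest to the highest of 3 libraries and a line at equal levels. UCHL1 lies at the top of both groups (18443 and 14796), USP46 and UCHL3 lie below the line, and USP20 and USP18 far above it.

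A gene was called changed when its Benjamini-Hochberg adjusted p from limma, fitted over all tested features, was below 0.05 and the groups differed by more than 2-fold. Log2 changes are differences of log2(signal + 1), which understates the change of genes with low signal. In SCNT4c-TDG against SCNT4c, 23 of the 43 tested genes changed, 16 higher and 7 lower, where 33.3% of all 18942 tested features changed (15.7% higher and 17.6% lower). Without OTUD4, USP5 and USP24, 20 of 40 changed, 14 higher and 6 lower. In SCNT4c-KG against SCNT4c, 17 of 43 changed, 11 higher and 6 lower, beside 37.2% of all features (17.6% higher and 19.6% lower), and without those 3 genes 16 of 40 changed, 10 higher and 6 lower. The share of deubiquitinase genes that changed was thus 53.5% in SCNT4c-TDG and 39.5% in SCNT4c-KG, the latter near the background. The background rose under some settings. In SCNT4c-TDG with a minimum mean of 50, 19 of 36 genes changed, beside 5160 of 10829 features. On the 2 groups alone, 23 of 44 changed, beside 8882 of 18647 features. The excess over the background thus depended on the setting. The median log2 change of the 43 genes was 0.75 in SCNT4c-TDG, where the median of all features was -0.26, and 0.28 in SCNT4c-KG, where it was -0.30. Without the 3 genes these medians were 0.70 and 0.22. After libraries were set to equal totals, the median of all features in SCNT4c-TDG was 0.02, and the same 23 genes changed. SCNT4c-TDG and SCNT4c libraries lay apart without overlap for 30 of 43 genes, beside 58.4% of all features, and SCNT4c-KG and SCNT4c libraries for 23 of 43, beside 53.9%. The 30 genes include OTUD4, USP5 and USP24, and the 23 include OTUD4. The sources do not say whether the pools of a group came from separate cloning sessions, so the p-values measure the spread between these pools, which may be technical. In pools of embryos, fewer cells of a type and less RNA per cell cannot be told apart.

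**Figure D2:**
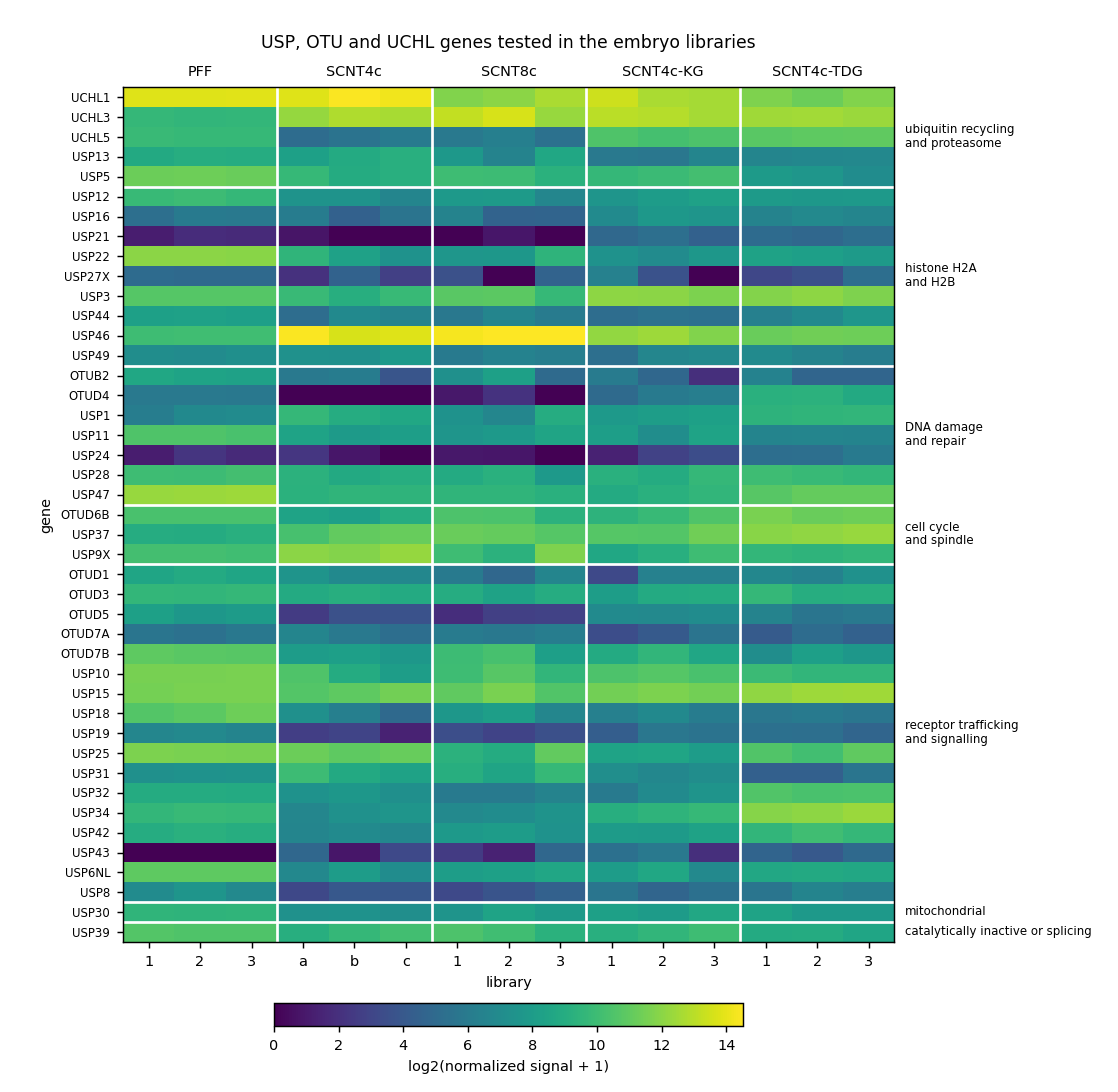
Log2(signal + 1) of the 43 tested genes (rows, grouped by role) in the 15 libraries (columns, by group), from dark (0) to bright (highest). The row of OTUD4 is dark in SCNT4c and SCNT8c and bright in SCNT4c-TDG, and UCHL1 is bright in the 5 groups.

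OTUD4 is an OTU enzyme that takes part in the repair of alkylated DNA, and it lies at chr8:83240759-83288237 on the plus strand of Sscrofa11.1. Its signal was 0 in each of the 3 SCNT4c libraries. It was 595, 649.7 and 448 in SCNT4c-TDG and 31.0, 62.2 and 72.7 in SCNT4c-KG. SCNT8c held 0.934, 3.33 and 0, and PFF held 58.6, 57.3 and 54.8. The 3 SCNT4c-TDG libraries were thus the highest of all 15, SCNT4c-KG spanned the level of PFF, and both untreated embryo groups were at or near 0. Set against 3 reads in the SCNT4c library with the highest such value (a signal of 2.62), the mean of SCNT4c-TDG was at least 215-fold higher, that of SCNT4c-KG at least 21.1-fold higher and that of PFF at least 21.7-fold higher, bounds that cover counting error only. The SCNT4c-TDG libraries all lay above the SCNT4c-KG libraries. These differences carry no test, since the rule used the SCNT4c and SCNT4c-TDG values. The authors' assembly placed OTUD4 in a locus with 9 other known genes and 7 assembled transcripts.

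USP5 takes apart free ubiquitin chains and so returns single ubiquitin to the pool, and it lies at chr5:63843742-63858835 on the minus strand. Its signal was 857, 493 and 565 in SCNT4c and 237, 199 and 133 in SCNT4c-TDG. SCNT4c-KG held 810.2, 954 and 1163, SCNT8c held 1044, 983 and 614, and PFF held 2444, 2545 and 2371. The 3 SCNT4c-TDG libraries were the lowest of all 15, and PFF the highest. The mean of SCNT4c-TDG was 0.298 times that of SCNT4c, which is given without a test because the rule names it. The libraries of SCNT4c-KG and of SCNT8c overlapped with those of SCNT4c.

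**Figure D3:**
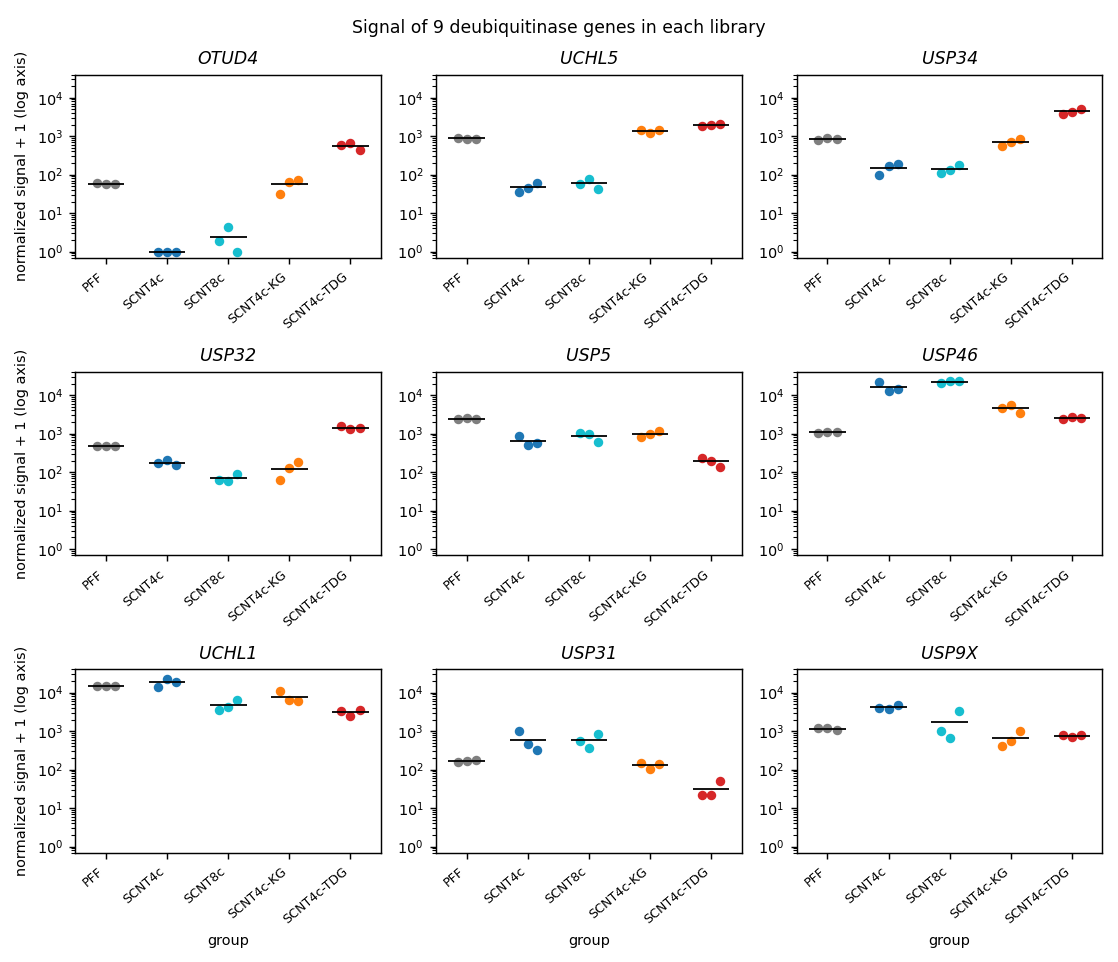
Signal + 1 (log axis) of 9 deubiquitinase genes in the 5 groups, with a point per library and a line at the mean of 3 libraries. OTUD4 rises from 0 in SCNT4c to 448 to 649.7 in SCNT4c-TDG, while USP5, USP46, UCHL1, USP31 and USP9X are lower in SCNT4c-TDG than in SCNT4c.

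The bases upstream of 4 of these genes are printed because the treatments act on DNA and histone methylation and these genes had strong rises (OTUD4, UCHL5) or falls (USP46, USP5). Each run is read 5′ to 3′ on the gene's strand and ends at the base before the RefSeq gene start of Sscrofa11.1, with CpG dinucleotides, the sites of DNA methylation, in capitals. The runs of OTUD4 (chr8:83240509-83240758, plus strand), UCHL5 (chr10:725438-725687, plus strand) and USP46 (chr8:39581991-39582240, minus strand) hold 250 bases, and that of USP5 (chr5:63858836-63858904, minus strand) holds 69, since an exon of another gene lies further upstream.
OTUD4: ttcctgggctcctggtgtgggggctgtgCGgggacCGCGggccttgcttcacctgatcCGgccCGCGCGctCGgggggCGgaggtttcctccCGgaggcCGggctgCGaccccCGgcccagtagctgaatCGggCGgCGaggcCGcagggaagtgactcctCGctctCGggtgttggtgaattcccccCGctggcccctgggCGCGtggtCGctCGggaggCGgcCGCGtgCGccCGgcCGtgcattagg
UCHL5: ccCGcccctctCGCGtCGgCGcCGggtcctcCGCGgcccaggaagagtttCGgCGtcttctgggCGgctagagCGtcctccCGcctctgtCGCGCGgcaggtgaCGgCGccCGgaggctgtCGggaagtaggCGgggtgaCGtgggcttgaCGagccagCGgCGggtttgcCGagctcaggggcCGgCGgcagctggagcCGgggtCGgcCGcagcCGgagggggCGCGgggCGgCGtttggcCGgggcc
USP46: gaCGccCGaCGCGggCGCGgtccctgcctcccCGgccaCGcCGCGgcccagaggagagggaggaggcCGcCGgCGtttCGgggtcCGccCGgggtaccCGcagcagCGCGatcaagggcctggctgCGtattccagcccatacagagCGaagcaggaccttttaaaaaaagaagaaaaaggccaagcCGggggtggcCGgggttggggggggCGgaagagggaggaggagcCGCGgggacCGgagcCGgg
USP5: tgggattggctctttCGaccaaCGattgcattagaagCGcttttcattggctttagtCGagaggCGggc

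The printed runs held 30 CpG in OTUD4, 37 in UCHL5, 28 in USP46 and 5 in the shorter run of USP5, and the full 250 bases of USP5 held 12. Over the 19558 protein-coding genes of the annotation the same window held a median of 12 CpG, and over the 62 genes a median of 20.5. The 16 genes that were higher in SCNT4c-TDG had a median of 19.5, the 7 that were lower 18, and the 20 tested genes that did not change 30. The box GGGCGG, searched on both strands and itself holding a CpG, occurred in the window of 41 of the 62 genes (66.1%; 45.9% of all protein-coding genes), among them OTUD4, UCHL5 and USP46. CCAAT, searched on both strands, occurred in 14 (22.6%; 31.9% of all), among them USP5. The medians of the genes that rose and of those that fell thus lay close together, and these counts are a description without a test.

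The genes of ubiquitin recycling and the proteasome come first. Of these 6 genes 5 were tested. Without USP5, 3 of 4 changed in SCNT4c-TDG (1 higher, 2 lower), beside 33.3% of all features, and 3 of 4 in SCNT4c-KG (1 higher, 2 lower), beside 37.2%. UCHL5, a deubiquitinase bound to the proteasome and to the INO80 chromatin remodeller, rose in both. Its signal was 34.7, 44.6 and 61.4 in SCNT4c, 1810.5, 1915 and 2061 in SCNT4c-TDG and 1489.8, 1232 and 1405 in SCNT4c-KG, so the groups lay far apart. Its log2 change was 5.37 ± 0.37 in SCNT4c-TDG (adjusted p = 1.8e-07) and 4.88 ± 0.37 in SCNT4c-KG (adjusted p = 1.64e-07), which is 41.1 and 29.3 times the mean of SCNT4c. SCNT8c, at 57.9, 76.5 and 42.3, overlapped with SCNT4c. UCHL1 fell in both treatments. It held 14231, 21986 and 18835 in SCNT4c, 3321, 2447 and 3488 in SCNT4c-TDG and 11113, 6524 and 6046 in SCNT4c-KG. Its change was -2.57 ± 0.31 in SCNT4c-TDG (adjusted p = 2.46e-05) and -1.25 ± 0.31 in SCNT4c-KG (adjusted p = 0.00604). USP13, a relative of USP5, held 301, 475 and 582 in SCNT4c, 97.0, 106 and 110.2 in SCNT4c-TDG and 57.2, 53.3 and 95.5 in SCNT4c-KG, and fell in both (-2.06 and -2.70, adjusted p = 0.00828 and 0.00122). UCHL3, at 4859 to 7030.1 in SCNT4c, did not pass the test in either treatment (-0.11 and 0.28, adjusted p = 0.801 and 0.498).

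Among the 9 tested genes whose products remove ubiquitin from histones, 3 changed in SCNT4c-TDG (2 higher, 1 lower), beside 33.3% of all features, and 4 in SCNT4c-KG (3 higher, 1 lower), beside 37.2%. Both shares were near the background. USP46, which with its relative USP12 is reported to act on both histones, was among the 3 highest per kilobase in SCNT4c. It held 22466, 13055 and 14619 in SCNT4c, 2373, 2640.3 and 2517 in SCNT4c-TDG and 4703, 5434 and 3479.7 in SCNT4c-KG. All 6 treated libraries were below the SCNT4c libraries, and the log2 changes were -2.70 ± 0.26 (adjusted p = 2.84e-06) and -1.86 ± 0.26 (adjusted p = 7.19e-05). USP12 did not pass the test (0.65 and 0.80, adjusted p = 0.282 and 0.17). USP3, which acts on H2A, held 923, 543 and 899 in SCNT4c, 3703, 4336 and 3397 in SCNT4c-TDG and 4223, 4126 and 3218 in SCNT4c-KG, and rose by 2.31 ± 0.33 and 2.32 ± 0.33 (adjusted p = 0.000109 and 9.9e-05). USP21, also an H2A enzyme, had 1 read over the 3 SCNT4c libraries, and signals of 28.4 to 36.7 in SCNT4c-TDG and 21.4 to 38.1 in SCNT4c-KG. It reached the minimum mean only through the treated groups, so its values are a description and no fold is given for it. USP16, another H2A enzyme, was called by the main limma fit in SCNT4c-KG but not in SCNT4c-TDG. It held 67.0, 21.8 and 46.5 in SCNT4c against 123, 213 and 191 in SCNT4c-KG (2.03 ± 0.63, adjusted p = 0.019). That call missed the threshold without SCNT4c-KG replicate 2 (0.0668), SCNT4c-KG replicate 3 (0.0538) or SCNT4c library b (0.0867). In SCNT4c-TDG it stood at 88.6, 112 and 97.2 (1.25, adjusted p = 0.135), where DESeq2 called it higher. The difference between the treatments did not pass the test (-0.78, adjusted p = 0.434). USP22, the deubiquitinase of the SAGA complex, did not pass the test in either treatment (-0.24 and -1.04, adjusted p = 0.771 and 0.152).

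Of the 7 tested genes of DNA damage and repair, OTUD4 and USP24 are left out of the count, and 2 of the other 5 changed in SCNT4c-TDG (USP47 higher, USP11 lower), beside 33.3% of all features. In SCNT4c-KG limma called 0 of these 5, beside 37.2% of all features, with 1 at an unadjusted p under 0.05, and edgeR and DESeq2 also called 0. On the 2 groups alone, limma called USP1 in SCNT4c-KG. USP47, which stabilises the base excision repair polymerase POLB, held 619, 718 and 699 in SCNT4c, 1750.3, 2169 and 2155 in SCNT4c-TDG and 462, 599 and 769 in SCNT4c-KG. It rose by 1.57 ± 0.29 in SCNT4c-TDG (adjusted p = 0.000877) and did not pass the test in SCNT4c-KG (-0.18, adjusted p = 0.65). USP24, a large enzyme that acts on damage sensors, had 6 reads over the SCNT4c libraries and signals of 37.6, 38.4 and 60.4 in SCNT4c-TDG. It reached the minimum mean only through that group, so its values there are a description. USP11, which acts on BRCA2, held 338, 245 and 284 in SCNT4c and 93.7, 96.7 and 91.8 in SCNT4c-TDG, a fall of -1.60 ± 0.44 (adjusted p = 0.0113). In SCNT4c-KG it held 281, 136 and 345 (-0.28, adjusted p = 0.642). USP1, the enzyme of FANCD2 and PCNA, stood at 399 to 816 in SCNT4c, 681 to 763 in SCNT4c-TDG and 219 to 302 in SCNT4c-KG and did not pass the test against SCNT4c (adjusted p = 0.559 in SCNT4c-TDG and 0.0997 in SCNT4c-KG). SCNT4c-TDG and SCNT4c-KG libraries of USP1 did not overlap (1.47, adjusted p = 0.0543), and that difference was called in edgeR, in DESeq2 and with equal totals.

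The 3 tested genes of the cell cycle and spindle, USP37, USP9X and OTUD6B, all changed in SCNT4c-TDG, 2 higher and 1 lower, beside 33.3% of all features, and 2 of them changed in SCNT4c-KG, beside 37.2%. OTUD6B was placed in this list, although it is tied to protein synthesis and growth. It held 344, 296 and 507 in SCNT4c, 3079, 2376 and 2609 in SCNT4c-TDG and 659.9, 873 and 1488 in SCNT4c-KG. Its rise was 2.84 ± 0.39 in SCNT4c-TDG (adjusted p = 6.76e-05) and 1.35 ± 0.39 in SCNT4c-KG (adjusted p = 0.0135). The smaller rise missed the threshold without SCNT4c library b (0.0588) or SCNT4c-KG replicate 3 (0.0717). USP37, the deubiquitinase of cyclin A, held 1259.6, 2118 and 2312 in SCNT4c and 3971, 4517 and 5089 in SCNT4c-TDG (1.30 ± 0.31, adjusted p = 0.00455), against 1638, 1624 and 2652 in SCNT4c-KG (0.06, adjusted p = 0.884). USP9X, a large X-linked enzyme with targets in the spindle checkpoint and in SMAD signalling, held 4045, 3664 and 4782 in SCNT4c, 774, 702 and 782 in SCNT4c-TDG and 410.0, 569 and 1017 in SCNT4c-KG. It fell in both treatments, by -2.46 ± 0.49 (adjusted p = 0.00135) and -2.74 ± 0.49 (adjusted p = 0.000551).

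Receptor trafficking and signalling was the largest role, with 17 tested genes, of which 9 changed in SCNT4c-TDG (8 higher, 1 lower), beside 33.3% of all features, and 7 in SCNT4c-KG (5 higher, 2 lower), near the 37.2% of all features. USP34, which acts on axin in the Wnt pathway, held 99.4, 164 and 188 in SCNT4c, 3738, 4313 and 5117 in SCNT4c-TDG and 544, 697 and 846 in SCNT4c-KG. The 3 groups did not overlap, and the rises were 4.90 ± 0.36 (adjusted p = 2.94e-07) and 2.23 ± 0.36 (adjusted p = 0.000238). USP32, an enzyme of late endosomes, held 170.4, 209 and 149 in SCNT4c and 1535, 1319 and 1371 in SCNT4c-TDG, but 60.4, 124 and 181 in SCNT4c-KG. It rose to 7.99 times the SCNT4c mean in SCNT4c-TDG (adjusted p = 0.000116) and did not pass the test in SCNT4c-KG (-0.65, adjusted p = 0.254).

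USP42, which stabilises p53, held 98.6, 125 and 105 in SCNT4c, 764, 1098 and 830.2 in SCNT4c-TDG and 255, 242 and 332 in SCNT4c-KG, with rises of 3.01 ± 0.36 (adjusted p = 2.02e-05) and 1.32 ± 0.36 (adjusted p = 0.00992). OTUD5, a regulator of innate immune signalling, held 4.73, 11.4 and 11.6 in SCNT4c, 90.3, 49.1 and 56.6 in SCNT4c-TDG and 124, 112 and 131 in SCNT4c-KG. Its log2 change was 2.73 ± 0.69 in SCNT4c-TDG and 3.67 ± 0.69 in SCNT4c-KG. These values are a description, since OTUD5 reached the minimum mean only through the treated groups. USP19, anchored in the endoplasmic reticulum, was low throughout the embryos, at 1.66 to 6.99 in SCNT4c, 25.3 to 40.1 in SCNT4c-TDG and 19.6 to 53.3 in SCNT4c-KG. It too reached the minimum mean only through the treated groups, so its values are a description. The call that counts it in SCNT4c-TDG was lost without SCNT4c library c or SCNT4c-TDG replicate 1 or replicate 2. USP8, which acts on receptors at endosomes, rose in SCNT4c-TDG, from 7.89 to 14.9 in SCNT4c to 48.5 to 91.3 (2.43 ± 0.70, adjusted p = 0.0145), a call lost without SCNT4c-TDG replicate 2 (0.0712) or replicate 3 (0.0517). USP15, an enzyme of SMAD signalling, rose in SCNT4c-TDG from 1591 to 2809 to a range of 4417 to 5611 (1.31 ± 0.30, adjusted p = 0.00393). USP6NL rose there from 107 to 260.4 to a range of 411 to 459 (1.46 ± 0.48, adjusted p = 0.0276), a call lost on leaving out SCNT4c library a (0.104), SCNT4c library c (0.0809) or any of the SCNT4c-TDG replicates (0.0675 to 0.0852).

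USP31, linked to NF-kB signalling, held 1007, 461 and 325 in SCNT4c, 20.9, 20.7 and 48.2 in SCNT4c-TDG and 145, 103 and 138 in SCNT4c-KG. Its fall of -4.22 ± 0.52 in SCNT4c-TDG (adjusted p = 2.78e-05) was the largest of the tested genes, and in SCNT4c-KG it fell by -2.06 ± 0.52 (adjusted p = 0.00654). USP25, which acts on TRAF proteins and tankyrases, held 2475, 1942 and 2298 in SCNT4c but 346, 365 and 265 in SCNT4c-KG (-2.78 ± 0.44, adjusted p = 0.000232), against 1559, 1135 and 2032 in SCNT4c-TDG (-0.54, adjusted p = 0.367). USP10, a partner of the stress granule protein G3BP1, was called in SCNT4c-KG at 1301 to 1657 against 272 to 1467 in SCNT4c (1.32 ± 0.49, adjusted p = 0.0435). These libraries overlapped, and the call was lost in 11 of 17 alternatives, among them leaving out SCNT4c library b (0.125), SCNT4c library c (0.208) or any of the SCNT4c-KG replicates (0.0764 to 0.118). The mitochondrial USP30 (0.75 and 1.01, adjusted p = 0.15 and 0.0524) and USP39, a spliceosome protein without deubiquitinase activity (-0.84 and -0.05, adjusted p = 0.104 and 0.924), did not pass the test in SCNT4c-TDG or SCNT4c-KG. USP30 was however called in SCNT4c-KG with a pseudocount of 0.1, a minimum mean of 50 and quantile normalization. It was also called there in edgeR, in DESeq2 and on the 2 groups alone, and in SCNT4c-TDG in DESeq2.

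**Figure D4:**
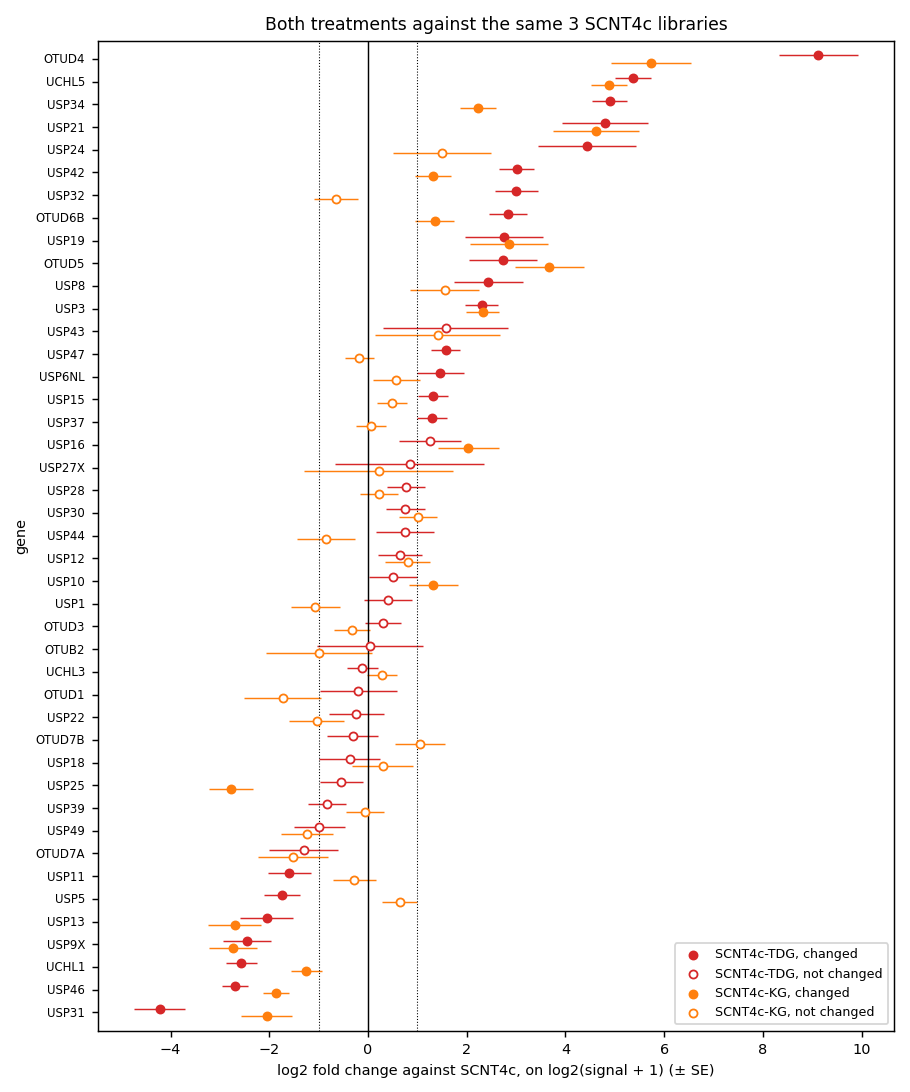
Log2 change against SCNT4c (± SE) of the 43 tested genes in SCNT4c-TDG and SCNT4c-KG, with filled points for changed genes and dotted lines at a 2-fold change. OTUD4 is at the top (9.13 and 5.73, values that rest on SCNT4c at 0 and are a description, like those of USP5) and USP31 at the bottom (-4.22 and -2.06). Both series use the same 3 SCNT4c libraries.

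The direct comparison of SCNT4c-TDG with SCNT4c-KG called 11 of 43 genes, 8 higher and 3 lower, beside 16.2% of all features (7.07% higher and 9.13% lower), and 30 of 43 had libraries that did not overlap, beside 44.4%. Without OTUD4, USP5 and USP24, all among those 30, 9 of 40 were called, 7 higher and 2 lower. With quantile normalization or equal totals, 14 were called, 12 higher and 2 lower, and UCHL1 was not among them. The largest difference was that of USP32, at 1319 to 1535 in SCNT4c-TDG and 60.4 to 181 in SCNT4c-KG (3.65 ± 0.44, adjusted p = 0.00011). USP34 (2.67 ± 0.36, adjusted p = 0.000216) and USP25 (2.24 ± 0.44, adjusted p = 0.00321) followed. Of these, USP25 had fallen in SCNT4c-KG and did not pass the test in SCNT4c-TDG against SCNT4c. USP47 (1.75, adjusted p = 0.00112), USP42 (1.69, adjusted p = 0.00506), OTUD6B (1.49, adjusted p = 0.0165) and USP37 (1.23, adjusted p = 0.0127) were also higher. USP31 (-2.17 ± 0.52, adjusted p = 0.0106) and UCHL1 (-1.32 ± 0.31, adjusted p = 0.00984) were lower in SCNT4c-TDG.

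Single libraries decided part of this list. The number called was 7 without SCNT4c-TDG replicate 2, when UCHL1 (0.0593), USP31 (0.0526) and USP37 (0.0504) missed the threshold. OTUD4, which is given as a description, also dropped out of the count then. It did so as well without SCNT4c-TDG replicate 1 and with a pseudocount of 0.1. Without SCNT4c-KG replicate 1 the calls of UCHL1 (0.0571), OTUD6B (0.0806) and USP37 (0.0569) were lost. OTUD6B and USP37 were also lost without SCNT4c-KG replicate 2 (0.0601 and 0.0607) or SCNT4c-TDG replicate 3 (0.0548 and 0.0619), and OTUD6B without SCNT4c-TDG replicate 1 (0.0734). USP32, USP34, USP25, USP47 and USP42 were called in each alternative run. For UCHL5 and USP3, which rose in both treatments, the difference between the treatments did not pass the test (0.49 ± 0.37, adjusted p = 0.405, and -0.01 ± 0.33, adjusted p = 0.986).

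**Figure D5:**
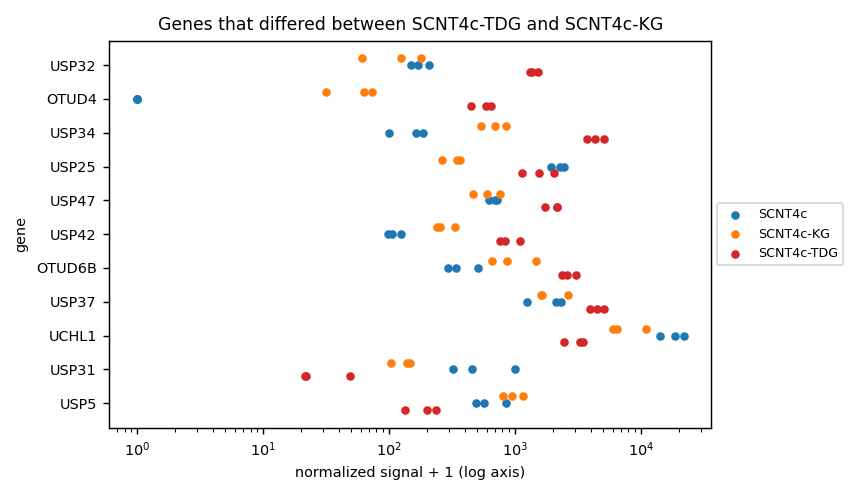
Signal + 1 (log axis) in each library of SCNT4c, SCNT4c-KG and SCNT4c-TDG for the 11 genes called between the treated groups, of which OTUD4 and USP5 are shown as a description. The SCNT4c-TDG points of USP32 lie at 1319 to 1535, above those of both other groups, and the SCNT4c-TDG points of USP5 at 133 to 237, below them.

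Between the 4-cell and the 8-cell stage, 2 of the 43 tested genes changed (1 higher, 1 lower), beside 5.79% of all features (2.62% higher and 3.16% lower), and 9 of 43 had libraries that did not overlap, beside 23.5%. OTUD6B rose from 344, 296 and 507 in SCNT4c to 1441, 1343 and 639 in SCNT8c (1.52 ± 0.39, adjusted p = 0.0371), and UCHL1 fell from 14231, 21986 and 18835 to 3457, 4149.9 and 6526 (-1.99 ± 0.31, adjusted p = 0.0126). Replicate 3 was the SCNT8c library nearest to SCNT4c for both. The call of OTUD6B was lost on leaving out any of the other 5 libraries (0.0572 to 0.14), and that of UCHL1 without SCNT4c library b (0.0542) or SCNT8c replicate 1 (0.0598). Without SCNT8c replicate 3, 11 of 44 tested genes changed, 5 higher and 6 lower, beside 32.3% of all features. The 9 added genes were OTUD7B, USP1, USP3, USP9X, USP13, USP18, USP25, USP32 and USP42. USP9X shows the split within the group, at 1033 and 643 in replicates 1 and 2 and 3379 in replicate 3, where SCNT4c held 3664 to 4782. USP25, likewise, stood at 642 and 489.6 in replicates 1 and 2 and at 2071 in replicate 3, within the 1942 to 2475 of SCNT4c.

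PFF differed from SCNT4c in 35 of 44 tested genes, 29 higher and 6 lower, beside 78.2% of all 19287 tested features (38.5% higher and 39.7% lower), and 40 of 44 had libraries that did not overlap, beside 84.5%. Of the 44 genes, 7 reached the minimum mean only through PFF (OTUD4, OTUD5, USP4, USP19, USP20, USP33 and USP40), and without these and USP5 27 of 36 changed, 21 higher and 6 lower. These 7 and USP5 are all among the 40 without overlap. The median log2 change was 1.52 for these 36 genes (2.02 for all 44), -0.07 for all features and 1.12 for known genes. Cells and embryos also differed in RNA extraction, which cannot be told apart from cell type here, and scaling mattered: the median of all features was -0.92 with equal totals and -1.01 in DESeq2, where 32 of these genes changed, 23 higher and 9 lower. USP20 was 0 in each SCNT4c library and 506, 579 and 502 in PFF, at least 202-fold higher against 3 reads. USP18 held 1619.9, 1858 and 2576 in PFF and 154, 75.2 and 29.9 in SCNT4c (4.79 ± 0.59, adjusted p = 0.000386). OTUD5 (209 to 309 in PFF and 4.73 to 11.6 in SCNT4c) and USP19 (93.0 to 115 and 1.66 to 6.99) did not overlap between the groups and are given as a description. Among the genes lower in PFF, USP46 held 1047, 1077 and 1093 (-3.92 ± 0.21, adjusted p = 9.27e-06), UCHL3 817, 748 and 793 (-2.94 ± 0.16, adjusted p = 1.07e-05) and USP1 70.9, 117 and 129 (-2.41 ± 0.36, adjusted p = 0.00102). USP9X (-1.85), USP37 (-1.82) and USP31 (-1.67) were also lower in PFF. UCHL1 did not pass the test, at 14479.8 to 15069 in PFF (-0.30 ± 0.16, adjusted p = 0.127), but was called in edgeR and in DESeq2. The calls of USP27X, USP28 and USP3 in this comparison were lost in edgeR and DESeq2 and when single libraries were left out, USP28 without PFF replicate 3 (log2 change 0.95) or SCNT4c library b (0.89), USP3 without SCNT4c library b (0.86), and USP27X without any PFF replicate or SCNT4c library a or c (adjusted p = 0.0875 to 0.108).

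Genes of deubiquitinase-related families outside these symbols, some without deubiquitinase activity, were listed separately, and 20 of the 28 in the table were tested. Of these 20, 9 changed in SCNT4c-TDG (5 higher, 4 lower), beside 33.3% of all features, and 7 in SCNT4c-KG (4 higher, 3 lower), near the 37.2% of all features. The strongest rises were those of PSMD7, an inactive MPN-domain subunit of the proteasome lid (5.14 ± 0.52 in SCNT4c-TDG, 7.15 ± 0.52 in SCNT4c-KG), EIF3F of the translation initiation factor (3.84 and 4.39) and COPS5, the deneddylase of the signalosome (3.34 and 2.71). ALG13 rose in both (1.79 and 2.25) and VCPIP1, a partner of the p97 segregase, in SCNT4c-TDG (2.21). PAN2, a poly(A) nuclease subunit with an inactive UCH-like domain (-1.92 and -2.20), and TNFAIP3 (-1.26 and -2.18) fell in both, BAP1, which acts on H2A (-1.46), and MINDY3 (-1.14) in SCNT4c-TDG and OTULIN, which cuts linear chains (-2.32), in SCNT4c-KG. In SCNT4c-TDG the call of TNFAIP3 was lost without any of the 6 libraries in turn (adjusted p = 0.0502 to 0.113), that of BAP1 without SCNT4c-TDG replicate 3 (0.0523) and that of MINDY3 without SCNT4c library c (log2 change -0.97). The calls of TNFAIP3 and MINDY3 were also lost with quantile normalization, equal totals, edgeR and DESeq2 (log2 changes of -0.95 to -1.03 and of -0.87 to -0.92).

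Among 14 tested partners of deubiquitinases, 7 changed in SCNT4c-TDG (4 higher, 3 lower), beside 33.3% of all features, and 8 in SCNT4c-KG (6 higher, 2 lower), beside 37.2%. Among the partners in SAGA, the complex of USP22, ENY2 rose by 3.07 ± 0.28 and 3.21 ± 0.28, ATXN7 by 4.50 and 4.15 and ATXN7L3 by 1.60 and 2.45 in SCNT4c-TDG and SCNT4c-KG, the acetyltransferase KAT2A fell (-2.63 and -1.31), and ATXN7L1 rose in SCNT4c-KG (2.47). ABRAXAS1 rose (2.07 and 1.99) and STAM fell (-1.12 and -1.15) in both, UIMC1 fell in SCNT4c-TDG (-2.80), and G3BP1 (adjusted p = 0.00771) rose in SCNT4c-KG. In SCNT4c-TDG the call of ATXN7L3 was lost without SCNT4c library b or c or any SCNT4c-TDG replicate (adjusted p = 0.0526 to 0.0914), that of STAM without SCNT4c-TDG replicate 1 (0.064) and with quantile normalization, equal totals, edgeR and DESeq2 (log2 changes of -0.83 to -0.99), and that of UIMC1 without SCNT4c library a or c or SCNT4c-TDG replicate 2 or 3 (0.0618 to 0.0979). UIMC1 also turned to 1.10 (adjusted p = 0.0845) when assembled transcripts of its locus were added. Its call was also lost in edgeR (0.0543) and with a pseudocount of 10 (0.0652). In SCNT4c-KG the call of KAT2A was lost without SCNT4c library a or b or SCNT4c-KG replicate 1 or 3 (0.073 to 0.18). It was also lost in edgeR (0.0589) and with every feature above 0 tested (0.0651), and the call of STAM was lost in DESeq2 (log2 change -0.99).

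Of 8 tested ubiquitin and activating enzyme genes, 3 were higher in SCNT4c-TDG, beside 15.7% of all features, and 3 changed in SCNT4c-KG (2 higher, 1 lower), near the 37.2% of all features. RPS27A, which encodes ubiquitin fused to a ribosomal protein, rose by 3.38 ± 0.41 and 5.28 ± 0.41. Ubiquitin genes share near-identical sequence with each other and with pseudogenes, so their counts from uniquely mapped reads are uncertain. UBA1 rose in both (2.88 and 3.30), while UBA6 rose in SCNT4c-TDG (1.45) and fell in SCNT4c-KG (-1.10). The fall of UBA6 was lost without SCNT4c library b (0.116), library c (0.0847) or any SCNT4c-KG replicate (0.0727 to 0.0872), and its rise without SCNT4c-TDG replicate 2 (0.0503). That fall was also lost with quantile normalization (0.0628), with every feature above 0 tested (0.0608), in edgeR (0.0757) and in DESeq2 (0.0654). The call of UBA1 in SCNT4c-TDG was lost without SCNT4c library a (0.0869), SCNT4c-TDG replicate 1 (0.0859) or replicate 2 (0.0644). With a pseudocount of 0.1, UBA1 lost its call in SCNT4c-TDG (0.0912) and in SCNT4c-KG (0.0529).

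The patterns of OTUD4 and USP5 over the 12 embryo libraries were compared with those of all named genes tested, as Pearson r of log2(signal + 1). The genes most like OTUD4 were the phosphatases PPM1B (0.995) and PTPN12 (0.995), and among the 62 genes USP34 (0.962), UCHL5 (0.957) and USP21 (0.937). Most like USP5 were MANBAL (0.975), BAP1 (0.969) and LRRC59 (0.966), and among the 62 genes USP11 (0.747), USP39 (0.736) and USP31 (0.678). The 12 libraries come from 4 groups and share depth and treatment, so these values describe likeness over groups and carry no p.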

How the data were processed

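RNA-seq libraries of 5 groups (3 each) were analysed. Per the labels and the study's methods, the authors used Trimmomatic 0.39 for trimming and STAR 2.5.3a for alignment (build Sscrofa11.1, unique hits only), assembled transcripts in StringTie 2.1.2 and counted with HTSeq. The deposited values are signal, reads scaled by a factor for each library. These factors were not the DESeq2 size factors of the 15 libraries. Whole reads were recovered by division (100% of values within 0.1 of a whole number). Recovered depth was 12354649 to 22868038 reads per library, which limits precision for genes with few reads. Reads shared by near-identical copies are lost to unique mapping.

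The table had 43535 rows, of which 241 repeated an ID and were removed. Log2(value + 1) was tested with limma 3.58.1 (intensity trend, mean of at least 10) in R 4.3.3, with the 12 embryo libraries fitted jointly and PFF against SCNT4c on 6 libraries. Adjusted p-values are limma's with Benjamini-Hochberg adjustment over all tested features unless another tool is named. The other steps used Python 3.11.15 (matplotlib 3.10.9, numpy 2.4.6, pandas 2.3.3), and promoter windows were read from the RefSeq genome and annotation of the same build. The fit was tested on simulated data.

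The members, lists and tests were chosen with earlier results of these data known. Values per library are given for OTUD4, USP5 and, by the naming rule, the 6 largest rises and falls against SCNT4c among the embryo groups and the 4 largest in the other comparisons, taken from changed genes whose libraries do not overlap and whose higher group averages 100 or more. Values of other genes, the 4 promoters and the genes of the plots were chosen after their values were seen. Some results of the listed genes are not reported here. Alternatives were pseudocounts of 0.1 and 10, quantile normalization, equal totals, a minimum mean of 50 or none above 0, edgeR 4.0.16 and DESeq2 1.42.0 on recovered reads, 2 groups alone, no fold limit, locus sums, a replicate block and each library left out. Same-numbered libraries of different groups were checked for pairing by correlating their deviations from the group means.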

Additional observations from a re-analysis of the deposited data

Results flagged for a closer look

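Assembled transcripts without a gene symbol, which belong to no gene entry described above, were higher in treated embryos than in SCNT4c at 3 loci whose only known gene is a deubiquitinase. Of 10 such transcripts tested, 3 were called in SCNT4c-KG and 3 in SCNT4c-TDG, beside 37.2% and 33.3% of all features, so the share was not above the background. The table does not say whether such a transcript is part of the gene, so the values belong to the locus. At the locus of USP7, an enzyme of p53 and DNMT1 whose own entry is 0 in all 15 libraries, the transcript held 140, 68.2 and 66.4 in SCNT4c, 1588, 1853 and 1317 in SCNT4c-KG and 344, 292 and 408 in SCNT4c-TDG. Its log2 change was 4.18 in SCNT4c-KG (limma adjusted p = 3.13e-05) and 1.99 in SCNT4c-TDG (adjusted p = 0.00942), and the treatments differed by -2.18 (adjusted p = 0.011). PFF held 51.3, 30.6 and 56.0 and SCNT8c 134, 97.3 and 27.5. At the locus of USP45 the transcript held 27.6, 41.9 and 54.0 in SCNT4c, 317, 298 and 235 in SCNT4c-KG and 191, 166 and 298 in SCNT4c-TDG, with log2 changes of 2.79 (adjusted p = 0.00219) and 2.38 (adjusted p = 0.00684). At the locus of UCHL5 it held 92.3, 61.2 and 44.0 in SCNT4c against 279, 301 and 208 in SCNT4c-KG, a log2 change of 2.03 (adjusted p = 0.00783), and its change in SCNT4c-TDG did not pass the test (0.47, adjusted p = 0.521). The third called transcript in SCNT4c-TDG lay at the locus of OTUD7A and was lower, at 26.8, 3.50 and 26.6 in SCNT4c, 1.67, 0 and 0 in SCNT4c-TDG and 177, 123 and 40.1 in SCNT8c. It reached the minimum mean only through SCNT8c and is given as a description.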

How the results depend on the processing

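Over 129 values of named genes and their 2157 alternatives, 2016 kept direction and side of the threshold, 139 kept direction but lost the call and 2 reversed. USP28 in PFF was -0.035 with quantile normalization, and UIMC1 in SCNT4c-TDG was 1.10 with assembled transcripts added to each gene. In SCNT4c-TDG against SCNT4c, 19 to 26 genes changed over the alternatives (main value 23), and in SCNT4c-KG against SCNT4c 14 to 20 (17). The changed genes of SCNT8c against SCNT4c (2) became 1 with all features above 0, 6 in DESeq2, 0 in limma on the 2 groups alone (7 at an unadjusted p under 0.05, 3 in edgeR over the 4 groups), and 0 to 11 with each library left out, with 0 without SCNT4c library b (10 unadjusted) or SCNT8c replicate 1 (8 unadjusted). On the 2 groups alone without SCNT8c replicate 3, a fit added after seeing the data, it was 10. SCNT4c-TDG against SCNT4c-KG (11) gave 7 to 12 with each library left out. When SCNT4c-TDG and SCNT4c-KG were fitted by themselves with a replicate block, 16 genes changed (11 higher, 5 lower), as in the same fit without the block. Same-numbered libraries shared only a number (correlations of -0.061 to 0.195). No paired analysis was possible for comparisons with SCNT4c because its columns carry no usable sample number. With PFF, 23 of 31 changed genes were higher in edgeR and 23 of 32 in DESeq2. With 3 libraries a group, the cause of these shifts was not tested.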
